A study of Rattus norvegicus with 12 samples.

Results

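The miR-181 family was followed in rat parotid acinar cells across terminal differentiation. The members were the 4 guide strands miR-181a, miR-181b, miR-181c and miR-181d, found by name on a qRT-PCR panel of 375 miRNA assays. Each was present as 1 mouse (mmu) assay, none as a rat assay, and 0 other assays carried miR-181 in their name, so the passenger strands of the same hairpins were not on the panel. The samples were laser-captured acinar cells of albino Sprague Dawley rats, with no treatment or engineered allele in any group, at embryonic day 20 (E20) and at postnatal days 5, 15 and 25 (P5, P15 and P25). There were 12 samples, 3 at each age, which the study took from separate litters. Each sample could draw on more than 1 capture. At E20 and P5 the gland was sectioned within the head, and at P15 and P25 it was removed first, so this step of the dissection cannot be told apart from age.

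miRNAs bind to mRNAs mainly through their seed, the bases that follow the first base of the guide strand, and lower the stability or translation of the mRNA. Members of a family share the seed and therefore much of their predicted target set. The miR-181 family is best known from the immune system, where miR-181a is abundant in developing thymocytes and sets their sensitivity to antigen, and it is also expressed in brain, muscle and epithelia. In the rat it is transcribed from 3 separate pairs of neighboring genes.

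The guide sequences are shown because they say which members could act on the same targets and how little separates the targets of the assays. The assays were designed for mouse, and the sequences are those of rat. The primer sequences were not given, so how far an assay also amplifies another member was not tested. All 4 matched an entry of RefSeq in the rat assembly GRCr8. Capitals mark the seed, bases 2 to 8.
miR-181a: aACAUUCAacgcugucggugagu
miR-181b: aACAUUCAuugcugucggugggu
miR-181c: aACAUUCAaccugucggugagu
miR-181d: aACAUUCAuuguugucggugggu
The family had 1 seed. Outside it the guides fell into a pair with miR-181a and miR-181c and a pair with miR-181b and miR-181d. Counted from 1 at the 5′ end, miR-181d differed from miR-181b by C12U alone, and miR-181c was identical to miR-181a with position 11 deleted. miR-181b differed from miR-181a by A9U, C10U and A21G, and miR-181d from miR-181a by those and C12U.

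The gene pairs cut across these sequence pairs. In GRCr8, on the plus strand, the miR-181a guide lay at chr13:52037081-52037103 in Mir181a-1 and at chr3:43025601-43025623 in Mir181a2, and the miR-181b guide at chr13:52037263-52037285 in Mir181b1, the next gene after Mir181a-1. Mir181b2 follows Mir181a2, and both lie within the span of Nr6a1, which encodes an orphan nuclear receptor, and of a long noncoding RNA gene. Mir181a-1 and Mir181b1 lie within the span of another long noncoding RNA gene. The miR-181c guide lay at chr19:40888314-40888335 and the miR-181d guide at chr19:40888484-40888506, in Mir181c and Mir181d, which are neighbors and lie within no other annotated gene. Mir23a, Mir27a and Mir24-2 are on the same chromosome, with 2 long noncoding RNA genes between Mir23a and Mir181c. The mature miR-181a has 2 source genes that its assay cannot tell apart.

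Each array gave a threshold cycle (CT) per assay, the number of PCR cycles needed to reach a set signal, which drops by 1 when the template is about 2 times as abundant. To put arrays on a common log2 scale, the CT of a miRNA was subtracted from its array's median CT over detected miRNAs, and the result is called its level (higher values, more miRNA). A CT under 40 counted as detected. The 4 members were detected on all 12 arrays, none of their 48 wells needed imputation, and all 4 passed the detection filter that left 192 assays for testing. Arrays detected between 179 and 307 miRNAs, fewest on P15 replicate 1. At E20 they detected 282 to 306, with a median CT of 31.9 to 32.3, and at P25 202 to 223, with 33.7 to 34.2. Between E20 and P25, detection depth and age therefore cannot be told apart. Mouse and rat assays of the same miRNA agreed less as the CT rose, which was taken as a drop in precision. Their SDs can also hold differences between the assays themselves. Where a miRNA had both a mouse and a rat assay, their difference had a median SD over arrays of 0.495 cycles for 3 miRNAs with a mean CT under 32, 0.852 cycles for 9 miRNAs from 32 to 35, and 1.62 cycles for 8 miRNAs at 35 or above. Of the member wells, 3 were above 35, namely miR-181c on P5 replicate 1 (36.0) and P15 replicate 1 (39.3), and miR-181d on P25 replicate 3 (36.7). The mean CT was 29.4 for miR-181a, 31.5 for miR-181b, 33.6 for miR-181c and 32.7 for miR-181d. Levels of different members are not compared with each other, since their primers differ.

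The first question was whether any member changed across the 4 ages. In the moderated F test of limma, fitted to the 12 samples together, 0 of the 4 members passed at a Benjamini-Hochberg adjusted p-value under 0.05, while 7.81% of the 192 assays did. The smallest adjusted p-value of the family was that of miR-181d (adjusted p = 0.215, limma). Its unadjusted value of 0.0436 was under 0.05, as was that of 20.8% of all assays, and it was the only such member. miR-181a, miR-181b and miR-181c had adjusted p-values of 0.968, 0.963 and 0.968 in limma, ranks 188, 187 and 189 of 192 by p-value.

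miR-181a, the thymocyte-associated member with 2 source genes, differed between E20 and P25 by less than the spread of the replicates. Its values were 4.15, 3.38 and 3.11 at E20, 3.96, 4.33 and 3.33 at P5, 2.47, 4.58 and 4.75 at P15, and 3.77, 4.12 and 3.04 at P25. The ages overlapped throughout, and the lowest value belonged to P15 replicate 1, the array with the fewest detected miRNAs. The mean level at E20 was 3.55 ± 0.54 (SD, n = 3), and that at P25 was 3.64 ± 0.55 (SD, n = 3). The difference on the log2 scale was 0.10 (standard error 0.77, adjusted p = 0.921, limma), with a 95% interval from -1.55 to 1.74. The age means ran from 3.94 at P15 through 3.88 at P5 and 3.64 at P25 to 3.55 at E20, and no neighbors in this order differed beyond their spread.

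miR-181b, the partner of miR-181a in both of its gene pairs, also differed between E20 and P25 by less than the spread of the replicates, which was wider after birth. Its values were 2.62, 2.16 and 1.32 at E20, 1.94, 2.45 and 0.24 at P5, -0.03, 2.77 and 1.85 at P15, and 2.68, 2.08 and -0.10 at P25. The 3 low values, near 0, were P5 replicate 3, P15 replicate 1 and P25 replicate 3. The mean level was 2.03 ± 0.66 (SD, n = 3) at E20 and between 1.53 and 1.55 at the postnatal ages, where the SD was 1.16 to 1.47. P25 minus E20 was -0.48 on the log2 scale (standard error 0.95, adjusted p = 0.744, limma), with a 95% interval from -2.50 to 1.53. Without P25 replicate 3 the difference was 0.35.

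miR-181c, the sequence partner of miR-181a, had its widest spread in the middle of the series. Its values were 0.35, -0.16 and -0.42 at E20, -1.87, 1.05 and -0.51 at P5, -4.53, 2.08 and 0.08 at P15, and -0.59, -0.21 and -0.70 at P25. The first and last ages were tight, with SDs of 0.39 and 0.26, while the SD was 1.46 at P5 and 3.39 at P15. The lowest values at P5 and P15 were the wells with a CT of 36.0 and 39.3. P25 minus E20 was -0.42 on the log2 scale (standard error 1.26, adjusted p = 0.826, limma), with a 95% interval from -3.09 to 2.25. P15 minus E20 was -0.72 (adjusted p = 0.817, limma), and without P15 replicate 1 it was 1.15 (adjusted p = 0.478, limma), so the direction at P15 rested on that array.

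miR-181d, which shares its gene pair with miR-181c and its sequence pair with miR-181b, had its lowest mean at P25, and the differences of P25 from the other ages, the largest of any member in those contrasts, did not pass the adjusted test. Its values were 2.21, 0.52 and -0.15 at E20, 0.30, 1.49 and 0.02 at P5, 0.42, 1.73 and 2.58 at P15, and -0.82, -0.04 and -2.98 at P25. All 3 P25 values were below 0, and below every P5 and P15 value. The highest P25 value (-0.04) lay only just below the lowest P5 value (0.02), and just above the lowest E20 value. The separation from P5 thus rested on a gap that was small beside the SDs of these ages. Of the assays measured in all samples of both ages, 10.9% had P25 values wholly below those at P5 and 3.2% had P25 values wholly below those at P15.

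The mean level of miR-181d at E20 was 0.86 ± 1.22 (SD, n = 3). It was 0.60 ± 0.78 at P5, 1.58 ± 1.09 at P15 and -1.28 ± 1.52 at P25, with the same n. In order, P15 was followed by E20, P5 and P25, and the values of the first 3 of these ages overlapped. P25 minus E20 was -2.14 on the log2 scale (standard error 0.93, adjusted p = 0.139, unadjusted p = 0.0358, limma), with a 95% interval from -4.12 to -0.16, or 4.41-fold lower at P25. P25 minus P15 was -2.86 (standard error 0.93, adjusted p = 0.242, unadjusted p = 0.00757, limma), or 7.25-fold lower, the 6th smallest p-value of 192. P25 minus P5 was -1.88 (standard error 0.93, adjusted p = 0.315, limma).

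**Figure D1:**
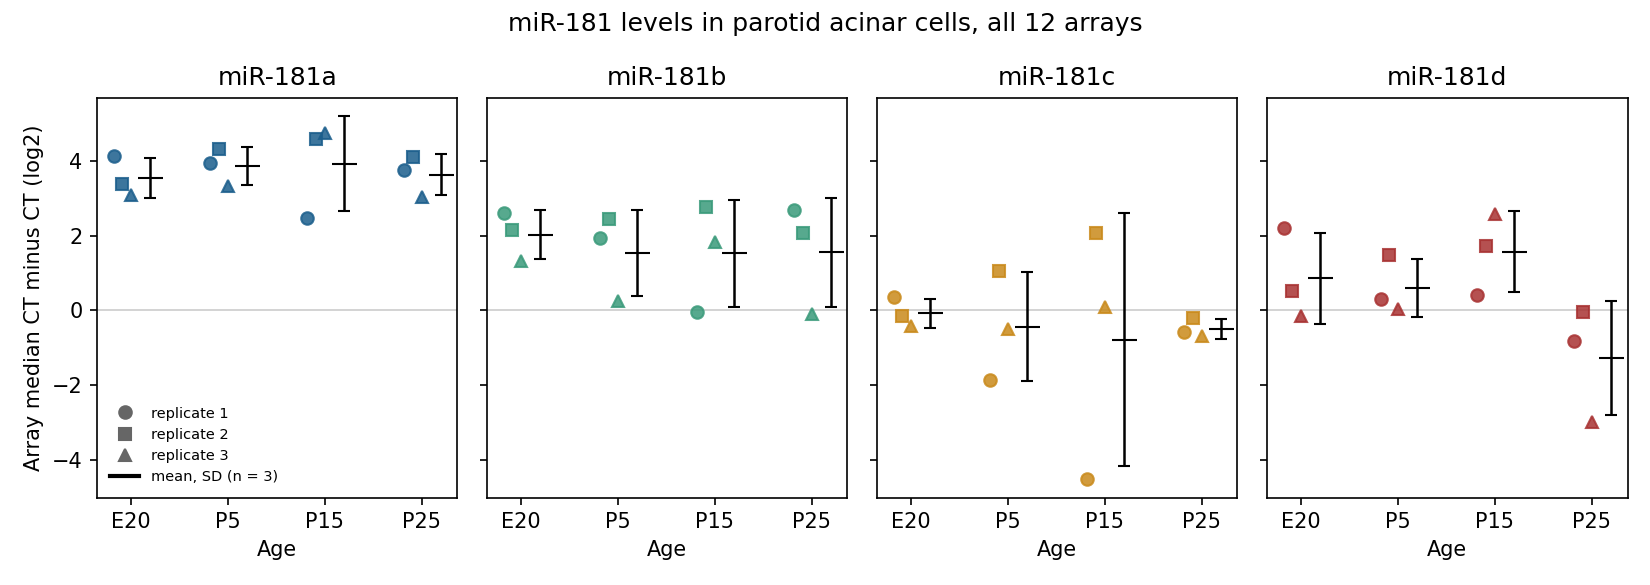
Level of each miR-181 member (y axis, array median CT minus CT, log2) on the 12 arrays by age (x axis). Symbols mark replicates 1 to 3, and black bars give the mean and SD of 3 samples. miR-181a stays between 2.47 and 4.75 at all ages, miR-181c drops to -4.53 on P15 replicate 1, and the 3 P25 values of miR-181d lie below 0.

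The P25 samples of miR-181d differed among themselves. P25 replicate 3, the well with a CT of 36.7, ranked 190 of 223 detected miRNAs by CT, against 121 of 202 and 115 of 223 on the other P25 arrays. Without it P25 minus E20 was -1.29 (adjusted p = 0.431, limma), P25 minus P5 was -1.03 (adjusted p = 0.760, limma) and P25 minus P15 was -2.01 (adjusted p = 0.494, limma). An exact two-sided permutation test of E20 against P25 gave p = 0.2 for miR-181d and 0.2 for miR-181c, 0.7 for miR-181b and 1.0 for miR-181a, where 3 samples against 3 cannot give less than 0.1. The E20 and P25 values of all 4 members overlapped, while 39.1% of assays measured in all samples of both ages did not overlap, 17.3% with P25 lower.

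Between pairs of ages, adjusted within each pair, no member passed limma's test in any of the 6 contrasts. From E20 to P25, 0 of 4 members passed, and 12% of the 192 assays did. From P5 to P25 it was 0 of 4 against 3.12% of all assays, and in the other pairs 0% of the panel passed. At an unadjusted p-value under 0.05, 1 member was found from E20 to P25 and 1 from P15 to P25, miR-181d both times, where 32.3% and 8.85% of all assays were found. The other pairs had 0 members at that level, against 7.81% of all assays from E20 to P5, 20.8% from E20 to P15, 6.25% from P5 to P15 and 17.2% from P5 to P25. The median change of the 4 members from E20 to P25 was -0.45, and that of all tested assays 0.15. All contrasts with 1 age share the samples of that age.

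**Figure D2:**
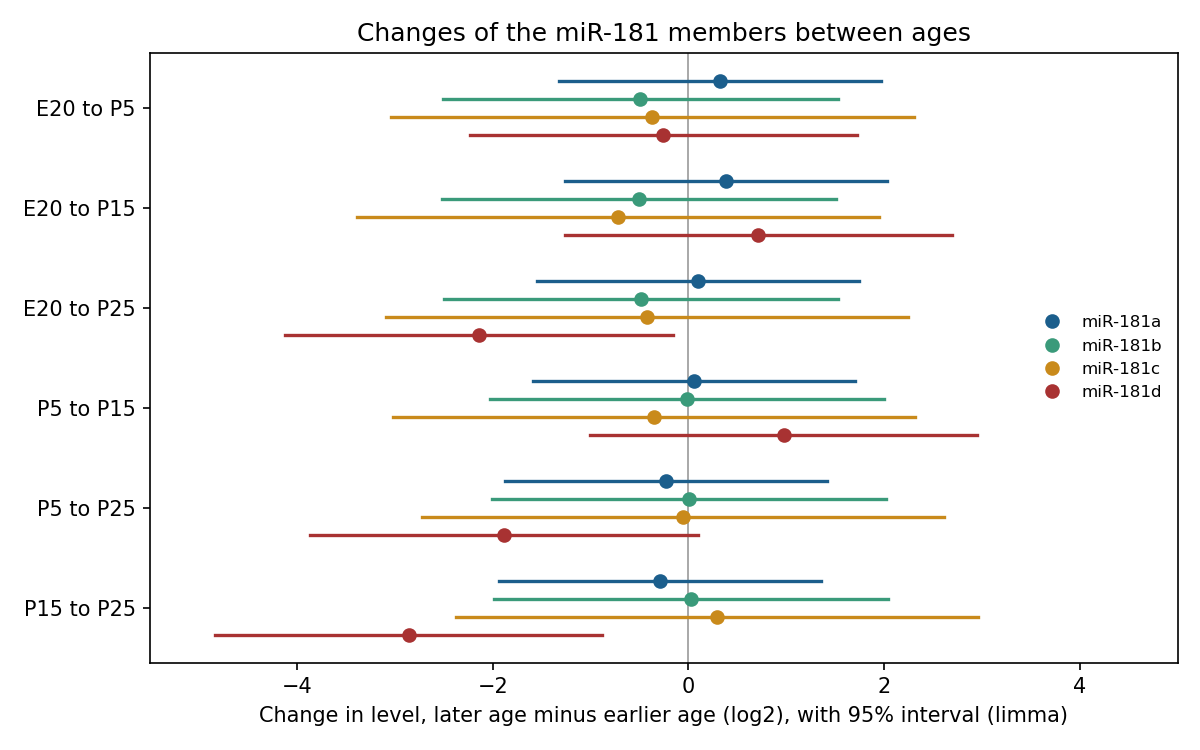
Change of each miR-181 member between pairs of ages (x axis, later age minus earlier age, log2), with the 95% interval of the limma fit. Intervals of miR-181a, miR-181b and miR-181c span 0 in all pairs, while those of miR-181d from E20 to P25 and from P15 to P25 lie below 0 before adjustment over the 192 assays.

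A linear trend over age in days, with birth at E22, asked for a steady rise or fall. It passed for 0 of 4 members in limma, with 14.1% of the 192 assays passing, and 0 members had an unadjusted p-value under 0.05, against 31.2% of all assays. The slope per 10 days was -0.62 on the log2 scale for miR-181d (standard error 0.32, adjusted p = 0.200, limma), -0.15 for miR-181b, -0.17 for miR-181c and 0.03 for miR-181a. Without P25 replicate 3 the slope of miR-181d was -0.24 (adjusted p = 0.651, limma), and without P15 replicate 1 that of miR-181c was -0.016. The quadratic trend also passed for 0 of 4 members and for 0% of the panel, with 0 members and 4.17% of all assays at an unadjusted p-value under 0.05. The smallest unadjusted p-value for it among the members was 0.0578, for miR-181d.

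Differences between members on the same array need no reference, since the array median cancels. For the 6 pairs of members, the within-array difference was regressed on age over the 12 arrays and tested by an exact two-sided permutation of the ages over 369600 assignments, adjusted over the 6 pairs. None passed. The smallest value was for miR-181a relative to miR-181d (exact permutation p = 0.0397, adjusted p = 0.238), with a slope of 0.65 log2 units per 10 days. For miR-181b relative to miR-181d the slope was 0.47 (exact permutation p = 0.197, adjusted p = 0.590), and for miR-181c relative to miR-181d 0.46 (exact permutation p = 0.410, adjusted p = 0.614). Without P25 replicate 3 the slope of miR-181c relative to miR-181d was 0.075, and without P25 replicate 1 that of miR-181b relative to miR-181d was 0.23. With the ages permuted only within a replicate number, miR-181a relative to miR-181d gave an exact permutation p = 0.0618 (adjusted p = 0.371) over the 12 arrays. In the postnatal arrays alone, where the numbers were taken to pair the ages, its slope was 0.83 (exact permutation p = 0.194, adjusted p = 0.583). No pair passed in either form.

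By array, miR-181a relative to miR-181d was 1.94, 2.87 and 3.26 at E20, 3.67, 2.84 and 3.31 at P5, 2.04, 2.86 and 2.17 at P15, and 4.60, 4.16 and 6.02 at P25. The 3 P25 arrays lay above all 9 other arrays, with the step between P15 and P25 rather than spread over the series. miR-181b relative to miR-181d separated likewise, from 2.12 to 3.51 at P25 and from -0.73 to 1.65 on the other 9 arrays. For miR-181c relative to miR-181d the P25 arrays overlapped the others. Among all 7140 pairs of the 120 assays detected on every array, 8.04% had P25 differences wholly outside those of the other ages, and 40.1% did not overlap between E20 and P25. This array-by-array pattern was picked out after the values were seen and is given as a description. Within replicate numbers 1 to 3, P25 minus P15 of miR-181a relative to miR-181d was 2.55, 1.30 and 3.84, and P25 minus P5 was 0.93, 1.32 and 2.71. Their common sign follows from the separation of the P25 arrays and adds nothing to it. Without P25 replicate 3 the slope of miR-181a relative to miR-181d was 0.38 (exact permutation p = 0.159).

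**Figure D3:**
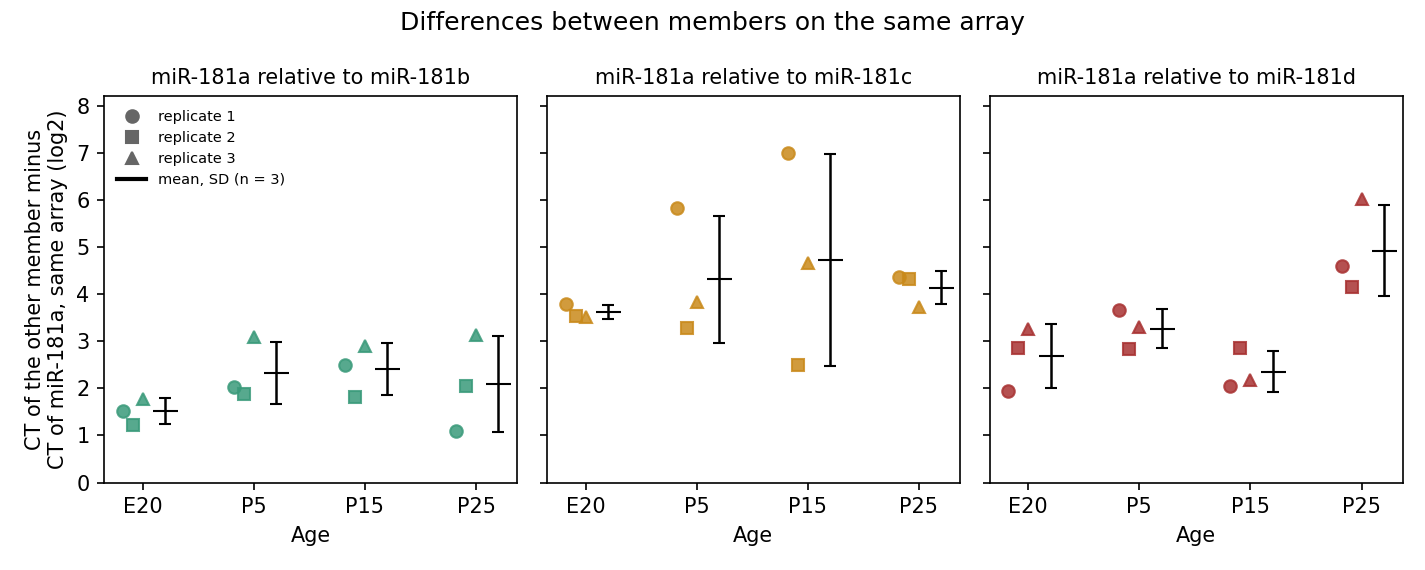
Level of miR-181a relative to each other member on the same array (y axis, CT of the other member minus CT of miR-181a, log2) by age (x axis). Symbols mark replicates, and black bars give the mean and SD of 3 samples. Relative to miR-181d, the P25 arrays lie between 4.16 and 6.02, and the other 9 arrays between 1.94 and 3.67.

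How closely 2 members tracked each other was described by the SD of their within-array CT difference over the 12 arrays. The smallest SD of the 6 pairs was that of miR-181a and miR-181b (0.689 cycles), which share both of their gene pairs, and the largest that of miR-181c and miR-181d (1.81 cycles), which share theirs. The other 4 pairs lay between 1.18 and 1.26 cycles, including miR-181b and miR-181d, whose guides differ by 1 base (1.26 cycles). The median over all 7140 pairs of assays was 1.67 cycles. Without P15 replicate 1, the SD of miR-181c and miR-181d was 1.34 cycles, still the largest of the 6. Ordered by SD among 119 other assays, miR-181b ranked 11 for miR-181a, and miR-181a ranked 2 for miR-181b. In the same order miR-181d ranked 70 for miR-181c, and miR-181c ranked 58 for miR-181d. miR-181c and miR-181d also had the highest mean CTs of the family, where precision was taken to be lower. Whether shared genes bear on these SDs was not tested.

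Among the 116 other assays detected on every array, the 3 with the smallest SD against each member were taken as the most alike. For miR-181a these were let-7d (0.408 cycles), miR-328 (0.557 cycles) and miR-24 (0.557 cycles). For miR-181b they were let-7i (0.597 cycles), let-7d (0.784 cycles) and miR-744 (0.791 cycles). Over these 5 miRNAs P25 minus E20 ran from -0.49 to 0.48 on the log2 scale, with adjusted p-values of 0.701 or more in limma. For miR-181c they were miR-21 (0.875 cycles), miR-16 (0.921 cycles) and miR-103 (0.939 cycles). For miR-181d they were miR-93 (0.797 cycles) and miR-25 (0.818 cycles), which come from a single cluster known for its expression in proliferating cells, and the epithelial miR-205 (1.09 cycles). For these 3, P25 minus E20 was -3.26 (adjusted p = 0.0622), -1.03 (adjusted p = 0.440) and -2.23 (adjusted p = 0.0626) in limma, so none passed. The most alike assays were picked on these same arrays, which favors changes like those of their member. Their changes are therefore a description only.

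The miRNAs of the genes on the same stretch of chromosome 19 as Mir181c and Mir181d were read beside them. P25 minus E20 was 0.32 for miR-23a, 0.14 for miR-24 and 0.29 for miR-27a on the log2 scale, and 0 of 3 passed limma's test (adjusted p-values from 0.814 to 0.905), where 12% of all assays passed. miR-24 has a second source gene on another chromosome.

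miRNAs of other cell types were read beside the family, since miR-181a is abundant in lymphoid cells and the captured tissue could hold some. Of the leukocyte miRNAs, 5 of 7 assays could be tested and 0 passed from E20 to P25 in limma, where 12% of all assays passed. With the array median taken after imputation, 2 passed, in a setting that called 47 of all tested assays instead of 23. P25 minus E20 was 1.78 for the lymphocyte-enriched miR-150 (adjusted p = 0.139) and -0.52 for miR-142-3p, found across blood cells (adjusted p = 0.782, limma). The summed level of the list lay between 2.03 and 3.04 at E20 and between 1.79 and 3.31 at P25, on the log2 scale. All 7 assays were detected on at least 1 array, and miR-155 had no CT at P25.

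Epithelial miRNAs were present at every age, with a summed log2 level of 5.71 to 7.35 at E20 and 9.01 to 9.78 at P25, and 2 of 9 assays rose in limma, miR-375 and miR-148a, where 4.17% of all assays rose and 7.81% fell. The summed level of the striated muscle list was 4.36 to 6.23 at E20 and 0.17 to 1.88 at P25, and 2 of 3 tested assays fell, with P25 minus E20 at -3.28 for miR-1 (adjusted p = 0.0331) and -4.07 for miR-133b (adjusted p = 0.0376, limma). miR-145 of the smooth muscle list rose by 4.74 (adjusted p = 0.0388, limma), and miR-143 of that list did not pass. For endothelial miR-126-3p P25 minus E20 was 0.93 (adjusted p = 0.474, limma). Of the nerve list 0 of 2 tested assays passed, and none of the 3 erythrocyte assays could be tested. The part of such cells in the values of the miR-181 members was not tested. In captured tissue, fewer cells that express a miRNA and less of it per cell cannot be told apart.

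**Figure D4:**
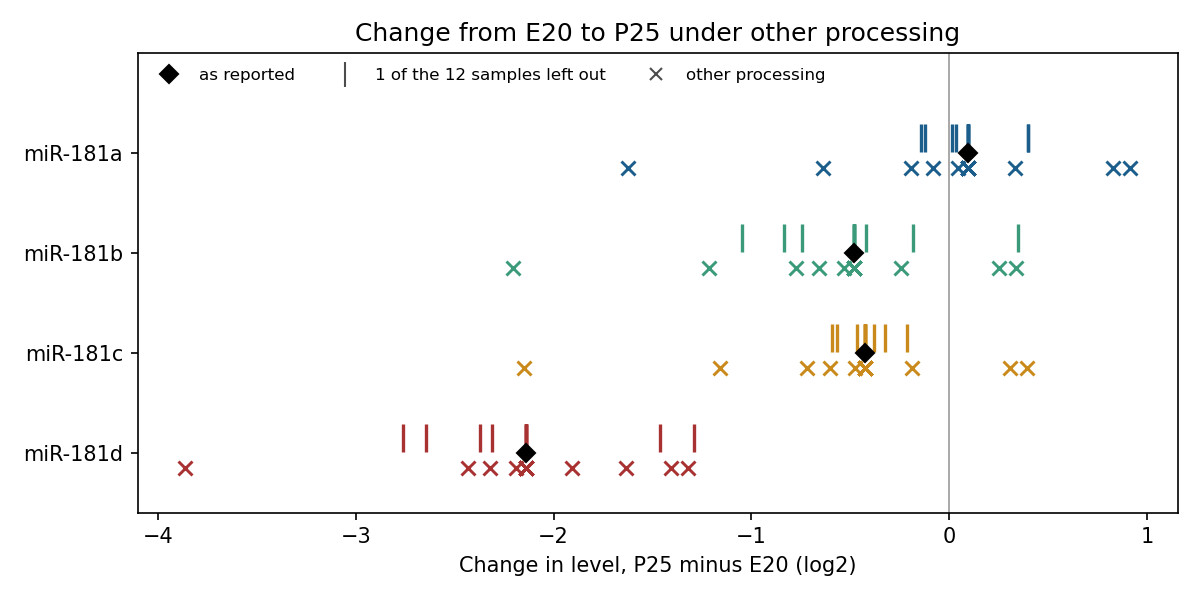
Change of each miR-181 member from E20 to P25 (x axis, log2) as reported (diamonds), with 1 of the 12 samples left out (upper ticks) and under other processing (lower crosses). miR-181d stays below 0, from -3.86 to -1.29, while miR-181a runs from -1.63 to 0.91 around 0. Settings that leave a member's E20 and P25 values unchanged fall on its reported change and could not turn its sign.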

How the data were processed

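RNA of laser-captured acinar cells was measured by the authors on the Exiqon Mouse&Rat panel I from 1 ng of total RNA per sample. The authors deposited the CT of every well unnormalized and unimputed, a score that falls as template rises. Undetermined wells were read as missing. Groups and replicate numbers came from the sample titles.

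A miRNA was kept if, at each of the 4 ages, 2 or more of its 3 CT values were under 40. The CT was subtracted from the array median of detected miRNAs, and 122 wells of other miRNAs were imputed by k-nearest neighbors (k = 10). limma 3.58.1 in R 4.3.3 was fitted to all 192 assays and 12 samples, with Benjamini-Hochberg adjustment over them, and tested on simulated data. The study names the array median, k-nearest neighbors and limma or ANOVA. The members, the lists and the tests were chosen with earlier results of these data known. The named miRNAs were all members, the 3 most alike assays for each member, the miRNAs of neighboring genes and the cell type lists.

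The ages share replicate numbers. Over the 120 miRNAs detected in all samples, deviations from the age means correlated above 0.1 in 9 of 9 same-numbered pairs among P5, P15 and P25 and in 1 of 9 with E20. The numbers were taken to pair the postnatal ages, on the values alone, since the labels do not pair them. Replicate 1 also had the fewest detected miRNAs at P5, P15 and P25 (224, 179 and 202). Whether shared detection depth gave these correlations was not tested.

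Alternatives covered the array reference, CT limit, missing values, detection filter, samples in the fit, replicate block and each sample left out.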

Additional observations from a re-analysis of the deposited data

How the results depend on the processing

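No member reached an adjusted p-value under 0.05 in any of the 764 values from 28 alternative settings, 1 of which was chosen after seeing the data (replicate block within the postnatal samples), as were both blocked tests of member pairs. miR-181d was lower at P25 than at E20 in all 27 alternatives, with an unadjusted p-value under 0.05 in 21 of them and adjusted p-values from 0.0524, with the mean of the assays detected in all samples as reference, to 0.981, with the small nuclear RNAs. Its change with 1 sample left out ran from -2.76 to -1.29. Settings that altered only the detection filter, the imputation, the replicate block, the P5 and P15 samples or the ages in the fit left the estimate at -2.14. In those settings the sign could not turn, so they add nothing on its direction. Only the estimated spread behind the p-value could change in them. The 21 settings are therefore not separate support for a difference. The replicate block changed no member's call in limma: for miR-181d from P15 to P25 the adjusted p-value was 0.153 with the block and 0.0951 with the block in postnatal samples alone. Over all assays the block called 32 from E20 to P25.

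The small differences of the other members turned sign in some settings. For miR-181a, P25 minus E20 and the slope per 10 days were -0.083 and -0.042 with the mean of the assays detected in all samples, -1.63 and -0.63 without normalization, -0.20 and -0.097 with CT values above 37 taken as not detected, and -0.64 and -0.26 with that limit at 35. For miR-181b they were 0.34 and 0.31 with the small nuclear RNAs and 0.25 and 0.093 with the median after imputation. For miR-181c they were 0.39 and 0.29, and 0.31 and 0.074, under the same references. With 1 sample left out, P25 minus E20 ran from -0.14 to 0.40 for miR-181a and from -1.05 to 0.35 for miR-181b, and the slope from -0.052 to 0.14 and from -0.33 to 0.087. The slope of miR-181b relative to miR-181c ran from -0.15 to 0.25 with 1 sample left out and was -0.070 with the CT limit at 37. That of miR-181a relative to miR-181d ran from 0.38 to 0.75, with adjusted p-values from 0.105 to 0.789 over all alternatives. With the replicate block in postnatal samples alone, miR-181a had slopes of -0.12 relative to miR-181b and -0.087 relative to miR-181c.

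The count of all assays called from E20 to P25 was 23 as reported, 0 with the small nuclear RNAs, 6 for assays detected in all samples, 10 with missing values at CT 40, 11 with the CT limit at 35, 35 with only the 2 ages in the fit and also with the mean reference, 38 with detection in 6 of 12 samples, 40 with the median of the assays detected in all samples, and 47 with the median after imputation. With 1 sample left out it ran from 8 to 38.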
